A study of Mus musculus with 16 samples.

Results

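Messenger RNA of mouse embryonic stem cells without Dgcr8 was compared with that of wild-type cells after 48 h of differentiation. The genes described are the 12592, of 41202 gene identifiers in the expression table, that reached 1 FPKM (a read count scaled to transcript length and library size) in at least 2 of the 4 libraries of this time point. The wild-type cells are the line v65 and the Dgcr8-/- cells the line ES1, both of strain 129/C57BL/6 at passages 9 to 11. Both had been moved from 2iL, a medium with inhibitors of MEK and GSK3 plus the cytokine LIF, into the defined medium N2B27 supplemented with the growth factor bFGF and KSR, a serum replacement. Each genotype had 2 libraries at 48 h and 2 in 2iL, made from polyA RNA per the labels, and the 2iL libraries entered the same model. Each genotype was 1 line, so every difference given is one between lines as well, and genotype and line cannot be told apart. The sources used here do not say what was repeated to make the 2 replicates, so p-values measure only the spread between these libraries.

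Dgcr8 is the RNA-binding partner of the nuclease Drosha, and the pair releases most miRNA precursors from their primary transcripts. miRNAs guide Argonaute proteins to matching sites in messenger RNAs, which are then translated less and degraded sooner, and bases 2 to 8 of the miRNA, the seed, do most of the matching. In embryonic stem cells the miR-290 and miR-302 clusters are the best known miRNAs. Several of their members share 1 seed, and reported target genes include cell cycle inhibitors. Leaving 2iL takes stem cells from naive pluripotency, the state of the inner cell mass, to formative pluripotency, the state of the early post-implantation epiblast. The study title asks how this miRNA family bears on that step.

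Small RNA libraries were made from the wild-type line alone, and those of 48 h show which miRNAs the comparison cells held. These 5 sequences are shown because they were the arms with the commonest seed, AAGUGCU, which together made up 13.97% and 12.18% of the small RNA signal in the 2 libraries. The seed is in capitals, and the sequences are mature miRNAs from RefSeq, found for 843 of 1696 arms and for 71.3% and 71.6% of the signal.
miR-302b-3p: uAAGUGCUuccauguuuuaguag
miR-295-3p: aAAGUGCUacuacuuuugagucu
miR-302d-3p: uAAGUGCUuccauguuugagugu
miR-294-3p: aAAGUGCUucccuuuugugugu
miR-291a-3p: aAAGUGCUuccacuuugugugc
The single arm with the highest signal among those matched was miR-293-3p, of the same genomic cluster but with another seed, at 7.87% and 7.77%.
miR-293-3p: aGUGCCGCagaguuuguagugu
The miR-17 type arms hold the same letters 1 base further along, as seed AAAGUGC, and made up 4.39% and 5.17% over 6 arms.
miR-20a-5p: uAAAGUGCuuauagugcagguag
Levels of these miRNAs in the knockout were not analysed here.

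Of the 12592 genes, 9269 (73.6%) differed between the genotypes at an adjusted p under 0.05 (limma's moderated test, Benjamini-Hochberg over 13166 tested genes). There were 4234 higher in the knockout (33.6%) and 5035 lower (40%). Over all 13166 genes tested, which include some above 1 FPKM in 2iL only, the shares were 71.8% either way, 33.4% higher and 38.5% lower. A difference of at least 2-fold was found for 1481 higher (11.8%) and 1108 lower genes (8.8%), against 11.3% and 8.42% of all genes tested, and one of at least 8-fold for 106 and 25. The 2 genotypes did not overlap for 11055 genes (87.8%, against 86.8% of all genes tested). The median log2 difference, given throughout as knockout minus wild type on the log2(FPKM + 1) scale, was −0.07, and the median standard error was 0.086. The 2 libraries of each group had correlations between 0.987 and 0.991, the summed FPKM of the 48 h libraries ran from 476957 to 542323, and the table gives no read numbers, so the depth is unknown. A log2 on this scale understates the change of genes with low values. All 4 libraries reached 1 FPKM for 10708 genes, of which 3352 were higher (31.3%) and 4360 lower (40.7%). At least 2-fold differences there came to 913 higher (8.53%) and 764 lower (7.13%). Only the 2 knockout libraries did so for 776 genes and only the 2 wild-type libraries for 588, so most of these had to differ. At the edge of the threshold, Gm6257 was just inside, at 1.08 and 1.00 FPKM in wild type and 0.600 and 0.462 in the knockout, and Zfp974 just outside, at 1.04 and 0.887 against 0.849 and 0.999.

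**Figure D1:**
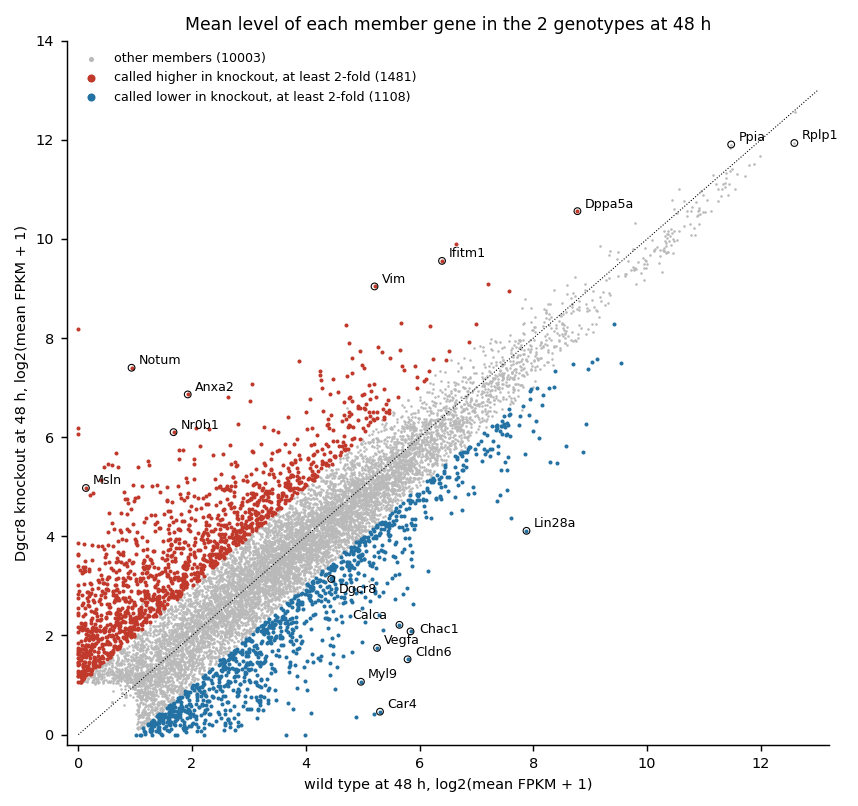
Mean level of each of the 12592 genes at 48 h, as log2(mean FPKM + 1) in wild type (x axis) and knockout (y axis), with 1 point per gene, the dotted line marking equal levels and circled genes named. The 1481 genes called at least 2-fold higher in the knockout lie above the line and the 1108 called at least 2-fold lower below it.

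Dgcr8 itself was lower in the knockout, but its transcript was not absent. It stood at 20.7 and 20.9 FPKM in the wild-type libraries and at 7.84 and 7.80 in the knockout libraries, a log2 difference of −1.31 (SE 0.05, adjusted p = 9.6e-07). The gene lies at chr16:18253948-18289251 (GRCm38.p6), and a value per gene does not show which exons the reads came from. Among 21 measured genes of miRNA processing and action, 8 were higher (38.1%, against 33.6% of all genes) and 7 lower (33.3%, against 40%). Those higher included 3 of the TNRC6 proteins, which link Argonaute to mRNA decay: Tnrc6b (1.24), Tnrc6a (1.05) and Tnrc6c (0.69). The Argonaute Ago1 went from 11.7 and 11.8 FPKM in wild type to 30.5 and 31.7 in the knockout (1.33), whereas Ago2, the Argonaute with slicing activity, was lower (−0.45). Drosha (−0.31) and the export receptor Xpo5 (−0.58) were lower, and Dicer1, which cuts the precursor in the cytoplasm, was at 16.6 and 17.0 against 17.0 and 18.2 FPKM (0.06, adjusted p = 0.45).

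The largest difference of this group was in Lin28a, whose protein blocks maturation of the let-7 miRNAs. Lin28a held 237 and 232 FPKM in the wild-type libraries and 17.0 and 15.6 in the knockout libraries (−3.77, SE 0.07, adjusted p = 5.1e-08). Its relative Lin28b was lower too (−1.14). Among 21 genes known as let-7 targets, 8 were higher (38.1%, against 33.6% of all genes) and 9 lower (42.9%, against 40%). Both shares were near those over all genes. The median of −0.06 became 0.0007 after median-ratio scaling and 0.03 without wild-type replicate 2. The cyclin Ccnd2 (1.79) and the RNA-binding protein Igf2bp2 (1.12) were the highest of them, and after the Lin28 genes Igf2bp3 (−1.64) and the chromatin protein Hmga1 (532 and 518 against 189 and 177 FPKM, −1.52) the lowest.

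Primary transcripts that host miRNAs went both ways, 10 of 24 measured being higher (41.7%, against 33.6% of all genes) and 9 lower (37.5%, against 40%). Mir17hg, host of the miR-17 to miR-92a cluster, went from 13.6 and 13.8 to 49.0 and 48.7 FPKM (1.76, adjusted p = 5.8e-07). Dleu2, host of miR-15a and miR-16, was at 1.83 and 2.15 FPKM in wild type and at 17.5 and 15.7 in the knockout (2.56). Mir22hg (1.95) and Mir124a-1hg (2.89) were higher in the knockout as well. On the other side, the long transcripts of the Dlk1-Dio3 imprinted region on chromosome 12, which carry a large miRNA array, were several-fold lower. Meg3 fell from 374 and 391 FPKM in wild type to 53.8 and 57.8 (−2.76), Rian from 486 and 483 to 70.8 and 81.1 (−2.66) and Mirg from 55.3 and 56.6 to 12.95 and 13.32 (−2.01).

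Of 19 measured genes reported as targets of miR-290 or miR-302, 15 were higher in the knockout (78.9%, against 33.6% of all genes) and 1 lower, with a median of 0.82. Among the 17 at 1 FPKM or more in all 4 libraries, 13 were higher. The list was compiled with earlier results of these data known. Epas1, a hypoxia-response transcription factor, was at 1.30 and 1.40 FPKM in wild type and at 45.2 and 44.6 in the knockout (4.29, SE 0.05, adjusted p = 2.4e-08). Cdkn1a, the p21 inhibitor of cyclin-dependent kinases, was at 20.8 and 21.7 against 144 and 141 (2.69, adjusted p = 4.2e-08). Ei24, a p53-induced gene, was at 32.5 and 30.5 against 172 and 162 (2.37). The 2 genotypes did not overlap for any of these genes, which also held for 87.8% of all genes. Lats2, a kinase of the Hippo pathway, was 2.13 higher, the pocket protein Rbl2 1.80, the interferon-response factor Irf2 1.48, Casp2 1.24, the methyl-CpG-binding protein Mbd2 1.06 and the TGF-beta receptor Tgfbr2 0.82. The kinase gene Akt1 was the 1 that fell (24.1 and 25.4 to 18.5 and 19.6 FPKM, −0.36). Rhoc, Bmpr2 and Lefty2 did not pass the test, at 0.26, −0.01 and −0.20.

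Naive pluripotency genes were higher in the knockout almost without exception. Of 23 measured, 21 were higher (91.3%, against 33.6% of all genes), 16 of them at least 2-fold. Only 1 was lower (4.3%, against 40%), and the median was 2.11. Of the 16 at 1 FPKM or more in all 4 libraries, 14 were higher and 1 lower, with a median of 1.79. Nr0b1, an orphan nuclear receptor of the naive network, was at 2.26 and 2.12 FPKM in wild type and at 68.3 and 67.1 in the knockout (4.43, SE 0.05, adjusted p = 2.1e-08). Klf2 was at 13.9 and 13.6 against 193 and 179 (3.66), and Nanog at 5.38 and 5.31 against 56.1 and 56.7 (3.18). Esrrb was at 5.53 and 4.17 against 52.0 and 47.2 (3.12). Each of these transcription factors was thus many-fold higher in both knockout libraries than in either wild-type library. Tfcp2l1 (2.56), the demethylase gene Tet2 (2.52), Zfp42 (2.45), the AKT cofactor Tcl1 (2.36), Nr5a2 (2.16), Prdm14 (2.11) and Klf4 (1.68) followed. Klf2 and Zfp42 lie on chromosome 8, whose genes were mostly lower, as given further on. Dppa3, a maternal factor that protects imprints, was the exception at 21.3 and 20.4 against 15.5 and 15.7 FPKM (−0.40), and Gbx2 did not pass (14.9 and 12.9 against 14.7 and 14.3, 0.06).

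The formative and primed genes were mostly lower, 16 of 24 (66.7%, against 40% of all genes), with 4 higher and a median of −1.03. Of the 21 at 1 FPKM or more in all 4 libraries, 13 were lower and 4 higher, with a median of −0.70. Pou3f1, a POU factor of the epiblast, was at 57.2 and 53.5 FPKM in wild type and at 15.1 and 14.2 in the knockout (−1.85). Fgf5, the classical marker of the state, was at 5.21 and 4.51 against 0.778 and 0.667 (−1.76). Pim2, a survival kinase, was at 465 and 469 against 51.0 and 50.6 (−3.18). For these 3 genes the knockout libraries lay well below both wild-type libraries, though all but Fgf5 stayed above 10 FPKM. The de novo DNA methyltransferases differed in the same direction, Dnmt3a at 279 and 270 against 61.3 and 63.0 (−2.12) and Dnmt3b at 556 and 549 against 192 and 187 (−1.54). Their catalytically inactive partner Dnmt3l went the other way, from 90.2 and 90.1 to 209 and 214 (1.22, adjusted p = 3.8e-06). So did Otx2, which directs the exit from the naive state, at 26.9 and 26.7 against 41.2 and 38.0 (0.54), and the Notch effector Rbpj (1.30) and the ETS factor Etv5 (0.33). Tcf7l1, Foxd3, Lef1 and Tcf15 did not pass, with differences between −0.19 and 0.15.

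**Figure D2:**
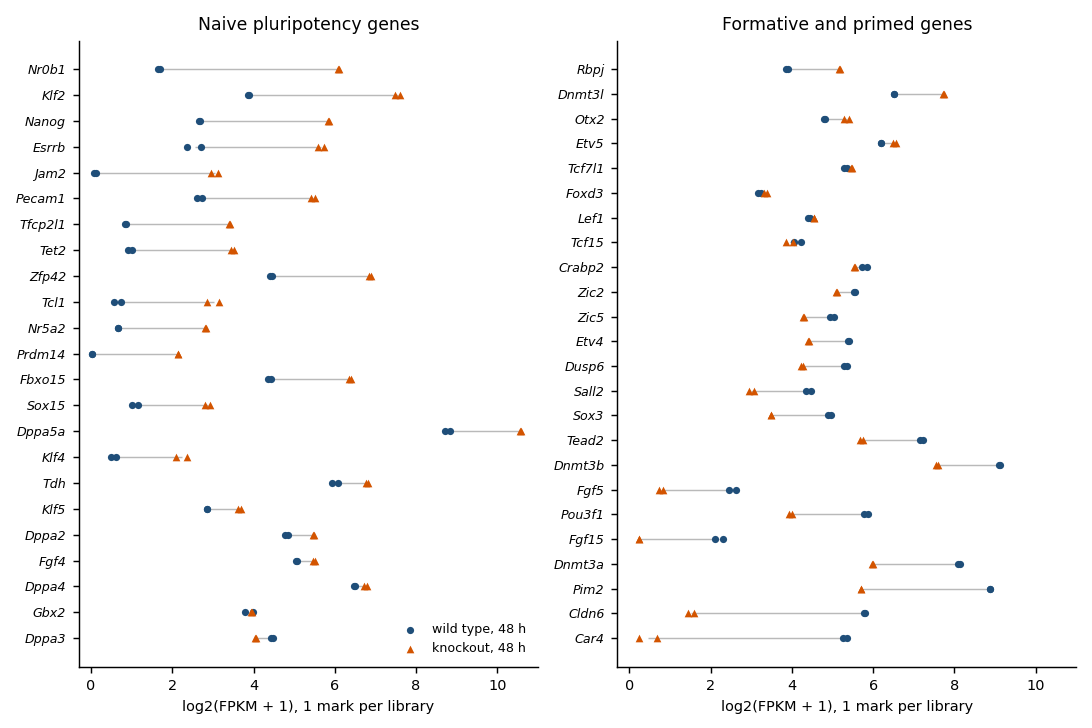
Levels at 48 h of the 23 naive (left) and 24 formative and primed (right) pluripotency genes, as log2(FPKM + 1) with 1 mark per library and a grey line joining the genotype means. Marks of the knockout lie to the right of the wild type for 21 naive genes called higher and to the left for 16 formative genes called lower, with Dppa3 and Dnmt3l among those that go against their list.

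Genes shared by both states were split, 10 of 18 being higher (55.6%, against 33.6% of all genes) and 6 lower (33.3%, against 40%). Pou5f1, encoding Oct4, was at 738 and 695 FPKM in wild type and 874 and 821 in the knockout (0.24, adjusted p = 0.0033), so both genotypes held it at a high level. Sox2 was at 30.2 and 31.1 against 179 and 168 (2.46) and alkaline phosphatase Alpl at 18.8 and 17.9 against 142 and 141 (2.88). Of 16 genes of LIF signalling 12 were higher (75%, against 33.6% of all genes) and 2 lower (12.5%, against 40%). Those higher included both subunits of the receptor: Il6st at 6.08 and 5.07 against 35.6 and 35.9 (2.49), and Lifr at 1.47 and 1.47 against 11.7 and 12.3 (2.40). The kinase Jak2 (1.79), the feedback inhibitor Socs3 (1.22) and Stat3 (0.48) were higher too. Ptpn11, the phosphatase SHP2, was lower (−1.17), as was Junb (−1.52). The 8 maternal-effect and preimplantation genes that passed the expression filter were each higher (against 33.6% of all genes), among them Ooep (2.69), Zp3 (2.24) and Dppa5a (1.79). Only 6 of the 8 reached 1 FPKM in all 4 libraries, and these 6 were higher, with a median of 2.01. For the others the filter itself could favour higher values in the knockout. Dppa5a, at 457 and 417 against 1525 and 1496 FPKM, showed the largest gain in absolute level among the genes ranked for naming, by the rule given with the processing.

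Signalling genes gave a mixed picture. In the NODAL and TGF-beta list 14 of 23 were higher (60.9%, against 33.6% of all genes) and 4 lower (17.4%, against 40%). The ligand Nodal was at 5.36 and 4.47 FPKM against 29.5 and 29.7 (2.37). Id1 (1.70) and Id3 (1.79), responders to BMP, were also higher. In the Notch list 12 of 17 were higher (70.6%, against 33.6% of all genes) and 4 lower (23.5%, against 40%). Those higher included the ligand Dll1 (1.27), the receptors Notch2 (1.19) and Notch1 (0.98) and the repressor Hes3 (2.62). The 4 lower were the ligands Jag2 (−1.02) and Dll3 (−1.09), Notch3 (−0.87) and Lfng (−0.31). Of 20 ERK-response genes 8 were higher (40%, against 33.6% of all genes) and 9 lower (45%, against 40%). They included the phosphatase Dusp4 at 45.9 and 47.1 against 5.44 and 5.82 (−2.84) and Dusp6 (−1.07) on the lower side, and Il17rd (1.77) and Phlda1 (1.63) on the higher. The lower majority of that list did not hold in several alternatives. It changed to 8 higher and 7 lower after median-ratio scaling. Without the genes of chromosome 8 it was 8 higher and 6 lower, all 3 listed genes on that chromosome being lower. The majority was also lost with any 1 of the 48 h libraries left out. Of 13 WNT-response genes 6 were higher (46.2%, against 33.6% of all genes) and 4 lower (30.8%, against 40%), with a median of 0.15. Notum, described below, Apcdd1 (1.46), Tcf7l2 (1.00) and Lgr4 (0.88) were among those higher, and the feedback genes Axin2 (−0.61), Nkd1 (−1.03) and Nkd2 (−1.76) and the transcription factor gene Tcf7 (−0.98) were lower. In the PI3K and AKT list 15 of 26 were higher (57.7%, against 33.6% of all genes) and 7 lower (26.9%, against 40%). Those higher were led after Tcl1 by the catalytic subunit Pik3cb (2.21) and the phosphatase Inpp5d (1.98), and Insr (−1.19) and Pik3r2 (−1.02) were among those lower. Of the TEAD factors of the Hippo pathway, Tead4 (1.14 and 0.492 against 16.7 and 16.8 FPKM, 3.31) and Tead1 (1.36) were higher and Tead2 (141 and 149 against 50.2 and 52.7, −1.47) and Tead3 (−1.53) lower.

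Of 27 genes of the G1/S transition, a list that holds cyclins, kinases, inhibitors and E2F factors, 17 were higher in the knockout and 6 lower. These are 63.0% and 22.2%, against 33.6% and 40% of all genes. Besides Cdkn1a those higher were led by Cdkn2b, the p15 inhibitor (1.95 and 1.81 against 10.5 and 10.4 FPKM, 2.00), the pocket protein gene Rbl2 (1.80) and the cyclin Ccnd2 (1.79), with E2f2 (1.63) and Rb1 (1.34). Of its 7 genes of kinase inhibitors 4 were higher, Cdkn1c was lower (−0.57), and Cdkn1b (−0.02) and Cdkn2d (0.07) did not pass. Cyclin E1, Ccne1, was lower (110 and 105 against 41.5 and 43.1, −1.32), and so was E2f4 (−1.16), which lies on chromosome 8. Of 21 p53-response genes 16 were higher (76.2%, against 33.6% of all genes) and 3 lower (14.3%, against 40%). Btg2, an antiproliferative gene, was at 8.36 and 8.26 FPKM in wild type and 56.5 and 57.8 in the knockout (2.64), and Mdm4 (1.88), Perp (1.89), Trp53inp1 (1.69) and Ccng1 (1.02) were higher. Trp53 was at 140 and 142 against 204 and 199 (0.51), and Pmaip1, encoding the cell death protein Noxa, was lower (−0.60). In the apoptosis list 7 of 21 were higher and 10 lower, which is 33.3% and 47.6%, against 33.6% and 40% of all genes. Bok, at 24.1 and 24.5 against 1.97 and 2.03 (−3.08), and Bid (−1.64) were the lowest and Casp2 (1.24) and Mcl1 (1.05) the highest.

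Genes of the response to amino acid shortage and of the unfolded protein response formed the list with the lowest median, −1.36. Of 19 measured, 14 were lower (73.7%, against 40% of all genes), 13 of these at least 2-fold, and 3 higher (15.8%, against 33.6%). Atf4, the transcription factor at its centre, was at 304 and 313 FPKM in wild type and at 127 and 124 in the knockout (−1.29). Chac1, which degrades glutathione, was at 55.4 and 57.2 against 3.65 and 2.82 (−3.77, SE 0.12, adjusted p = 4.4e-07), and the pseudokinase Trib3 at 49.2 and 53.9 against 5.95 and 6.44 (−2.87). The enzymes of serine synthesis Psat1 (310 and 317 against 44.1 and 44.2, −2.80) and Phgdh (184 and 186 against 29.8 and 29.5, −2.60), asparagine synthetase Asns (178 and 193 against 38.3 and 40.3, −2.21) and the mitochondrial enzyme Shmt2 (−1.50) were lower by a similar order. The 3 that were higher are chaperones of the endoplasmic reticulum and their regulator: Dnajb9 (0.89), Xbp1 (0.76) and Hspa5 (0.17).

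Promoters were searched for the ATF4 site TGATGNAA on both strands, a motif chosen after the values of these genes were seen. It was found within 250 bases before to 50 after the start of 6 of the 19 genes (31.6%), against 2.64% of the 9537 genes of this comparison with a promoter in RefSeq and 4.51% of all promoters in the table. The 6 were Chac1, Trib3, Atf3, Herpud1, Asns and Slc7a11, and all 6 were lower. Over all genes of the comparison the site was in 2.90% of those higher and 2.56% of those lower. A match is only a run of letters and does not show binding. The promoters of the first 3 are shown 5′ to 3′ on the strand of the gene (GRCm38.p6), with the match in capitals.
Chac1, chr2:119350992-119351291, plus strand: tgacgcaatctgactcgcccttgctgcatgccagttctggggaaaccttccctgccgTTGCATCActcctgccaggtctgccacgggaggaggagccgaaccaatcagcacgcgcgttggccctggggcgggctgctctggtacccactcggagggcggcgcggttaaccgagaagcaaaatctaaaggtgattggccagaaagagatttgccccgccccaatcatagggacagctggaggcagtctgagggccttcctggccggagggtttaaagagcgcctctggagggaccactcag
Trib3, chr2:152344011-152344310, minus strand: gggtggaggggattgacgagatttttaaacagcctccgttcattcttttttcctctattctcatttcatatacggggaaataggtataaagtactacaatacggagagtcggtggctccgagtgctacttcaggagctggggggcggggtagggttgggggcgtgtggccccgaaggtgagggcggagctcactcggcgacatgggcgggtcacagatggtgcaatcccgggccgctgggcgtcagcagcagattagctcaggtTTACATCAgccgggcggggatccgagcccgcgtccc
Atf3, chr1:191183284-191183583, minus strand: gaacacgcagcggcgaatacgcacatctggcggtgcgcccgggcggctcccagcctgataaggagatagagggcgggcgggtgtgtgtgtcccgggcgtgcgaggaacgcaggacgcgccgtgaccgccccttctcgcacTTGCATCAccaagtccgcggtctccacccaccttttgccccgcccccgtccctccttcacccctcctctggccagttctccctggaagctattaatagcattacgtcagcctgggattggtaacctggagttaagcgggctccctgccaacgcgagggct

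Cholesterol synthesis was the list with the greatest share of lower genes, 20 of 23 (87.0%, against 40% of all genes), with 2 higher and a median of −0.72. Along the pathway, Hmgcs1 (178 and 176 against 85.6 and 83.7 FPKM, −1.05) was lower at the start, and Pmvk (−1.72), Fdps (337 and 321 against 128 and 130, −1.34), Lss (−1.55) and Msmo1 (−2.08) at later steps. The late enzyme Ebp (9.17 and 8.64 against 27.9 and 30.2, 1.60) was among those higher. The sterol response element TCACNCCAC, searched in the same way on both strands, was found in 1 of 15 of these genes with a promoter in RefSeq, Hmgcs1, against 1.46% of the genes of the comparison. Glycolysis genes were lower in 12 of 23 (52.2%, against 40% of all genes), higher in 4 (17.4%, against 33.6%). Ldha was at 745 and 743 FPKM against 185 and 176 (−2.04), with the lactate exporter Slc16a3 (−1.19) and Aldoa (−1.13) next, whereas Hk1 (1.30), the glucose transporter Slc2a3 (1.12), Pfkm (0.95) and Ldhb (0.20) were higher. Under quantile scaling the glycolysis genes came to 7 higher.

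The list of actomyosin genes and genes linked to the serum response factor went both ways. Of 31 measured, 17 were lower (54.8%, against 40% of all genes) and 12 higher (38.7%, against 33.6%). The largest differences were on the lower side. Myl9, a myosin light chain, was at 31.8 and 28.8 FPKM in wild type and at 1.27 and 0.916 in the knockout (−3.91, SE 0.13, adjusted p = 4.9e-07). Cnn2, a calponin, was at 51.4 and 55.9 against 6.72 and 6.86 (−2.81), and zyxin, Zyx, at 39.8 and 44.0 against 7.50 and 7.20 (−2.36). Tagln (−2.41), Tpm4 (−2.08, on chromosome 8), Tpm2 (−1.88) and Srf itself (29.6 and 30.9 against 10.4 and 10.7, −1.43) were also lower, and Acta2 was listed at 0 in both knockout libraries against 2.58 and 1.93 FPKM. Caldesmon, Cald1 (2.07), and Rhob (1.70) were among those higher. The list's median of −0.16 became 0.02 under quantile scaling, with 12 higher and 15 lower.

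The CArG box, known as the site of the serum response factor, was searched for by the same procedure and was also chosen after the values were seen. It was in the promoters of 5 of 25 listed genes (20%), against 1.49% of the genes of the comparison and 1.81% of all promoters in the table. Myl9, Cnn2, Srf and Vcl of these were lower, and Actg1 was higher (0.30). Over all genes of the comparison it was in 1.59% of those higher and 1.38% of those lower. The promoters of 3 are shown, with each match in capitals.
Myl9, chr2:156775214-156775513, plus strand: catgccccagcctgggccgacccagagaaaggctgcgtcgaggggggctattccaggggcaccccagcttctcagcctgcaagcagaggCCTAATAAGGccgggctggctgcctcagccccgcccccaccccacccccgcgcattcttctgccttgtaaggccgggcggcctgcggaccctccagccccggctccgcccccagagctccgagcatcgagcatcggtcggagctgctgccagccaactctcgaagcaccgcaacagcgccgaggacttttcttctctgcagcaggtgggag
Cnn2, chr10:79988350-79988649, plus strand: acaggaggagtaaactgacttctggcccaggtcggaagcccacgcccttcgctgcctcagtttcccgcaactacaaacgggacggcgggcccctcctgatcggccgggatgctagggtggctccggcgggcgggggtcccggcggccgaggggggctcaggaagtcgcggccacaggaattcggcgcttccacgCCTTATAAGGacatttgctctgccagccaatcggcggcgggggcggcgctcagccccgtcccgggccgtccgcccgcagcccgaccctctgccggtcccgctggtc
Srf, chr17:46556113-46556412, minus strand: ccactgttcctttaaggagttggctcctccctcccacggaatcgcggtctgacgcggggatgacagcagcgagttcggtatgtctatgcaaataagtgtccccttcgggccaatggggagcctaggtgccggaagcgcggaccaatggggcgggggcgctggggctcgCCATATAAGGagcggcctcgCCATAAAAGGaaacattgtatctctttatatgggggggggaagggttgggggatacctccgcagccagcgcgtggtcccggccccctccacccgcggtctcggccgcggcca

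Annexins, which bind membranes in the presence of calcium, and their S100 partners were higher in 14 of 16 cases (87.5%, against 33.6% of all genes). Of these, 11 were at least 2-fold higher, and the list had a median of 1.70. Of the 10 at 1 FPKM or more in all 4 libraries, 9 were higher, 7 of them at least 2-fold, with a median of 1.39, and the other 6 include genes such as Anxa3 that passed the expression filter through 1 genotype. Anxa2 was at 2.67 and 2.92 FPKM in wild type and at 117 and 114 in the knockout (4.94, SE 0.08, adjusted p = 3.8e-08). Its partner S100a10 was at 19.5 and 20.4 against 57.4 and 53.9 (1.43), S100a11 at 26.8 and 25.1 against 244 and 235 (3.16), and Anxa3 at 0.382 and 0.630 against 18.8 and 17.9 (3.69). The knockout libraries lay above the wild-type libraries for each of these, while the 2 genotypes did not overlap, in either direction, for 87.8% of all genes. Anxa6 (26.4 and 26.5 against 8.06 and 7.54, −1.64) and S100a1 (−1.14) were the 2 that were lower. Matrix and integrin genes were higher in 24 of 30 cases (80%, against 33.6% of all genes) and lower in 4 (13.3%, against 40%). Their median was 1.07. Examples are the basement membrane genes Nid1 (1.65 and 1.55 against 32.9 and 31.1, 3.67) and Lamc1 (24.7 and 25.3 against 81.2 and 82.7, 1.67), fibronectin, Fn1 (36.7 and 38.1 against 225 and 226, 2.56), syndecan Sdc4 (2.71) and integrin Itgb7 (3.17). Lamb1, a laminin chain, went the other way (21.7 and 22.6 against 5.88 and 7.45, −1.60).

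In a list that mixes epithelial and mesenchymal regulators, 14 of 25 were lower (56%, against 40% of all genes) and 8 higher (32%, against 33.6%). Its median was −0.23. The claudins of tight junctions were at 54.6 and 54.0 against 2.02 and 1.71 FPKM for Cldn6 (−4.27) and at 31.8 and 29.6 against 1.87 and 3.48 for Cldn7 (−3.14). Rab25, a GTPase of epithelial recycling, was lower by 2.98 on the log2 scale (20.9 and 20.2 against 1.60 and 1.87 FPKM). Cdh1, encoding E-cadherin, was at 223 and 224 against 96.6 and 100.4 (−1.17) and lies on chromosome 8. Vimentin, Vim, was at 36.8 and 35.1 against 522 and 531 (3.83, SE 0.05, adjusted p = 2.4e-08). The repressors of E-cadherin Zeb1 (0.915 and 0.827 against 8.17 and 7.72, 2.26) and Snai1 (1.30 and 1.15 against 5.96 and 7.04, 1.75) were higher, as was N-cadherin, Cdh2 (1.10).

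Markers of other cell types were read with the same rule. Of 22 markers of fibroblasts and feeder cells, 13 stayed under 1 FPKM in all 4 libraries, including the collagens Col1a1 (0.154 and 0.0987 in wild type, 0.127 and 0.118 in the knockout) and Col1a2. Their summed level was 103 and 101 FPKM in wild type and 773 and 783 in the knockout, of which Vim and Fn1 made up most, and Acta2 and Tagln were lower. Of 20 markers of primitive endoderm 13 were under 1 FPKM throughout. Gata6 and Sox17 were below 0.1 FPKM in each library, and the summed level was 297 and 293 against 561 and 566, mostly Apoe, Sparc and Lamc1. Of 16 markers of primitive streak and mesoderm with an entry, 13 were under 1, with T and Mixl1 below 0.5 in each library and a sum of 3.85 and 3.90 against 11.9 and 12.8. Neuroectoderm markers reached 72.6 and 68.1 against 222 and 222, mostly Stmn2 (26.7 and 24.1 against 151 and 149, 2.52), with Neurod1 (2.17 and 2.21 against 15.6 and 16.4, 2.41) and Pax6 (1.76) higher and Nes lower (−0.62). Trophectoderm markers summed to 39.1 and 37.6 against 103 and 99.3, with Krt19 (1.45 and 1.27 against 44.2 and 40.5, 4.20) and Gata3 (1.30) higher and Cdx2 under 0.3 FPKM in each library. Of 9 measured blood, T-cell and leukotriene genes 6 were higher (66.7%, against 33.6% of all genes) and 3 lower (33.3%, against 40%). Of the 5 at 1 FPKM or more in all 4 libraries, 2 were higher and 3 lower, with a median of −0.35. For the others the filter itself could favour higher values in the knockout. The 3 lower genes were Coro1a (−1.80), Lck (−0.62) and Lat (−0.35), and the call of Lat was lost without knockout replicate 2 or either wild-type library. Genes of the CD3 complex of T cells were near 0 in wild type and present in the knockout, Cd3e at 0.313 and 0.226 against 13.8 and 12.0 (3.45), while Ptprc, the pan-leukocyte gene, was below 0.03 in each library. In such bulk samples fewer cells of a type and less RNA per cell cannot be told apart, and the part of minority cells in any of these differences was not tested.

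Among imprinted genes, 14 of 27 were lower (51.9%, against 40% of all genes) and 9 higher (33.3%, against 33.6%). Besides the Dlk1-Dio3 transcripts, the growth regulators Phlda2 (38.7 and 37.6 against 4.30 and 4.42 FPKM, −2.87), Grb10 (66.1 and 73.9 against 9.26 and 8.49, −2.85) and Peg10 (−1.89) were lower, and Nespas (2.39) and Plagl1 (1.88) higher. H19 (4.51 and 2.94 against 3.82 and 3.25) and Igf2 did not pass. Germline genes were split, 15 of 30 higher (50%, against 33.6% of all genes) and 13 lower (43.3%, against 40%). The oocyte and meiosis genes Sohlh2 (2.27 and 2.49 against 30.8 and 31.6, 3.25) and Hormad1 (2.81 and 3.34 against 34.2 and 34.8, 3.13) were higher, and the meiosis genes Hormad2 (−2.62) and Sycp3 (−2.26) and the X-linked homeobox gene Rhox5 (231 and 229 against 48.2 and 51.3, −2.19) lower. The 6 genes of the 2-cell-like state that passed the expression filter were each higher (against 33.6% of all genes), by 0.64 to 1.52. All were under 5 FPKM in wild type, and 4 of them were Zscan4 copies that can share reads. Only 1 of these 6, Ddit4l, reached 1 FPKM in all 4 libraries, so for the others the filter itself favoured higher values in the knockout. The list of MHC class I and antigen presentation was split, 6 of 16 being higher (37.5%, against 33.6% of all genes) and 7 lower (43.75%, against 40%). Lower were heavy chain genes such as H2-K1 at 39.63 and 39.96 against 3.53 and 3.09 (−3.24) and H2-D1 at 15.97 and 18.32 against 7.74 and 8.17 (−1.02), though these copies can share reads. Their partner B2m did not pass (8.18 and 9.07 against 9.09 and 8.93), and the interferon-induced Ifitm1 was higher, at 80.7 and 85.5 against 777 and 729 (3.16).

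Genes of protein synthesis were mostly lower, by small amounts, and so were housekeeping genes. Of 14 housekeeping genes 8 were lower (57.1%, against 40% of all genes) and 2 higher, with a median of −0.14. Under quantile scaling the housekeeping genes came to 6 lower and 4 higher, with a median of 0.02. Of 86 measured cytoplasmic ribosomal protein genes 71 were lower (82.6%, against 40% of all genes) and 4 higher (4.7%, against 33.6%). Their median was −0.34. Together they held 24.98% and 24.59% of the summed FPKM in wild type and 22.1% and 21.6% in the knockout. This count depends on the scaling, with 43 lower and 20 higher under quantile scaling. Rplp1 had the largest fall in absolute level among the genes ranked for naming. It was at 6079 and 6247 against 3997 and 3841 FPKM (−0.65, adjusted p = 1.2e-04), and −0.13 with adjusted p = 0.14 under quantile scaling. Against the family stood the retrogene-type copies Rpl10l (17.8 and 19.3 against 128 and 124, 2.70) and Rpl39l (5.57 and 5.26 against 22.1 and 23.7, 1.90), whose reads can be shared with their parent genes. Mitochondrial ribosomal protein genes were lower in 56 of 77 cases (72.7%, against 40% of all genes, median −0.42), led by Mrpl12 (−1.41). Proteasome genes were lower in 25 of 37 (67.6%, against 40% of all genes, median −0.33), led by Psmb10 (−1.62) and Psmd7 (−1.12), both on chromosome 8. Under quantile scaling the proteasome genes came to 19 lower and 12 higher, from 3 higher, with a median of −0.14. Nucleolar Npm1 was at 2992 and 2992 against 2074 and 2058 (−0.53). The named genes with the next largest gains in absolute level after Dppa5a were Ppia, Ifitm1, Vim and the mitochondrially encoded mt-Co1 (0.39) and mt-Cytb (0.44).

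**Figure D3:**
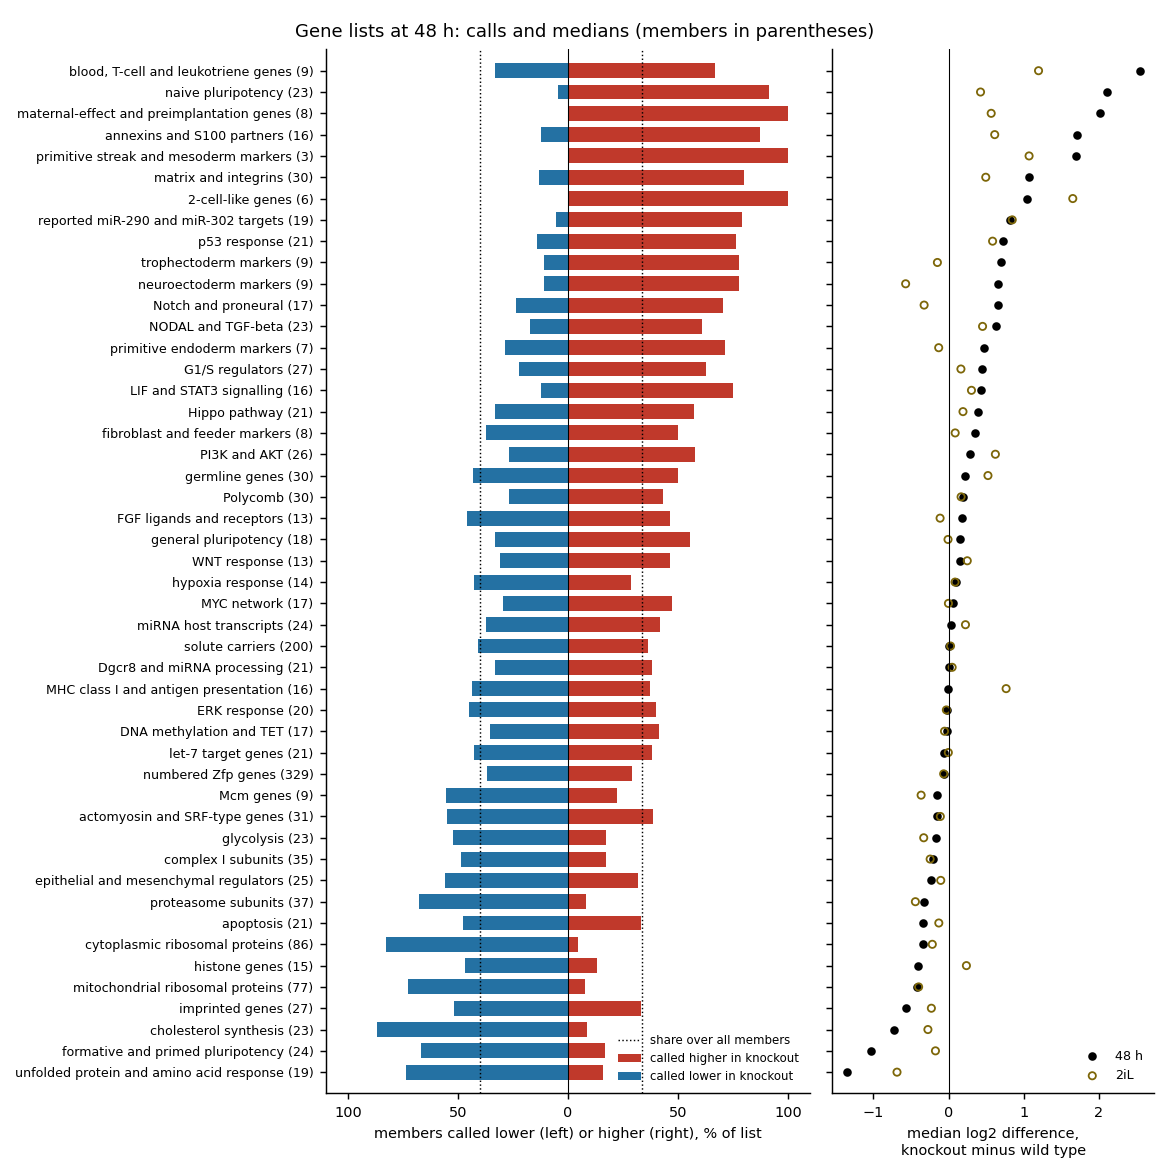
Share of each gene list called lower (blue, left) or higher (red, right) in the knockout at 48 h, with the number of measured genes in parentheses and dotted lines at the shares over all 12592 genes, and the lists' median log2 differences at 48 h (filled) and in 2iL (open). The lists of housekeeping genes and of X and Y chromosome dosage genes are not shown. Naive pluripotency genes lie near the top at a median of 2.11 and the amino acid and unfolded protein response at the bottom at −1.36.

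The single genes that differed most at 48 h were, for the most part, on in 1 genotype and nearly off in the other. Among genes with a plain symbol and a mean of at least 5 FPKM in 1 genotype, Notum, a secreted enzyme that inactivates WNT proteins, was highest, at 1.14 and 0.682 FPKM in wild type and at 177 and 159 in the knockout (6.47, SE 0.11, adjusted p = 5.1e-08). Notum lies at chr11:120653788-120661193 (GRCm38.p6). The autophagy receptor Calcoco2 (5.02), the membrane protein Emp1 (4.96), Anxa2, Bglap3 (4.86), mesothelin, Msln (4.85), Smyd1 (4.77), galectin-3, Lgals3 (4.71), Efhd1 (4.63), Nr0b1 and Arhgdib (4.36) were also among the 12 highest. Car4, a membrane-bound carbonic anhydrase, was lowest, at 40.1 and 36.9 FPKM in wild type and 0.169 and 0.587 in the knockout (−4.86, SE 0.14, adjusted p = 3.0e-07). It was followed by Tmem54 (37.8 and 33.6 against 0.220 and 0.436, −4.79), Mef2b (−4.53), Cldn6, Myl9, Lin28a, Chac1, the tetraspanin Tspan7 (−3.66), the receptor Epha1 (−3.59), Vegfa, the angiogenic growth factor (34.3 and 39.9 against 2.55 and 2.17, −3.50), Calca (−3.43) and Galnt3 (−3.26). Under 0.5 FPKM in both wild-type libraries and at 5 or more in both knockout libraries were 68 genes, such as the kinase receptor Epha4, Cd109 and Edn2. The reverse held for 19 genes, such as the lipoprotein receptor Vldlr, calponin Cnn1 and the tubulin gene Tubb4a.

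How far the 48 h difference was already present in 2iL was read from the other 4 libraries, which are separate from those at 48 h. Both differences came from the same fit, with a shared estimate of spread for each gene. A gene with a small spread is thus more readily called in both, and the 2 sets of calls are not independent. In 2iL 7997 of the 12592 genes (63.5%) differed between the genotypes, 3782 of them higher (30%) and 4215 lower (33.5%). Over all genes tested these shares were 63.4%, 30.6% and 32.8%. Of the genes higher at 48 h, 2709 were also higher in 2iL, which is 64.0% of the 48 h list and 71.6% of the 2iL list, and of those lower at 48 h 3188 were also lower in 2iL (63.3% and 75.6%). In opposite directions went 356 and 352. The 2 differences were correlated across genes at r = 0.63, a description over 12592 genes that are not independent replicates. The size of the difference departed from that in 2iL for 5397 genes (42.9%, limma interaction), 2692 of them upward (21.4%) and 2705 downward (21.5%) at 48 h. Over all genes tested 21.1% went upward and 21.7% downward. Among genes at least 2-fold higher at 48 h, 1158 of 1481 were also higher in 2iL, and among those at least 2-fold lower 767 of 1108 were also lower in 2iL.

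The differences of the gene groups in the 2 conditions are given side by side, as descriptions. Naive genes had a median of 0.43 in 2iL against 2.11 at 48 h, and the interaction was called upward for 20 of 23. Nanog differed by 0.43 in 2iL and Esrrb by 0.12. Formative genes had a median of −0.17 in 2iL against −1.03, with the interaction called downward for 14 of 24 and upward for 6. Pim2 differed by 0.05 in 2iL, and Car4 was listed at 0 in each of the 2iL libraries. The listed miR-290 and miR-302 targets had medians of 0.85 in 2iL and 0.82 at 48 h, with 7 called upward and 3 downward. Cholesterol synthesis and the amino acid response were lower by more at 48 h, with the interaction called downward for 16 of 23 and 16 of 19. The contractile genes Myl9, Zyx and Tagln differed by −0.04, 0.19 and −0.15 in 2iL. Ribosomal protein genes, at −0.22 in 2iL against −0.34, had the interaction called for 14 of 86. Some genes reversed. Dnmt3l was 3.38 lower on the log2 scale in 2iL (mean 123 against 10.9 FPKM) and higher at 48 h, and the MHC gene H2-Bl was higher in 2iL (3.64) and lower at 48 h (−1.50). Lin28a was lower in both, by more in 2iL (−5.65, mean 105 against 1.10 FPKM).

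**Figure D4:**
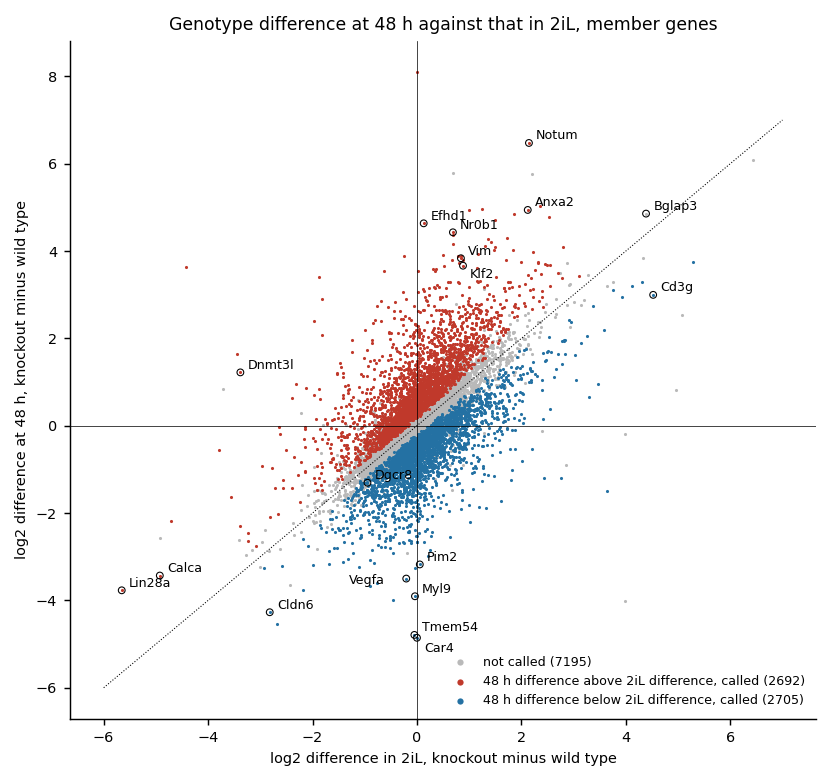
Log2 difference between knockout and wild type in 2iL (x axis) and at 48 h (y axis) for the 12592 genes, with genes whose 2 differences were called unequal by the interaction in colour, 2692 above and 2705 below the dotted line of equality. Car4, Tmem54 and Myl9 lie near 0 in 2iL and far below 0 at 48 h, and Lin28a and Calca lie far below 0 in both.

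Position on the chromosomes, which the choice of genes did not use, went along with the difference for 2 chromosomes. Chromosome 8 held 631 of the genes, with a median of −0.56. Of these, 437 were lower in the knockout (69.3%, against 40% of all genes) and 97 higher (15.4%, against 33.6%). The median was between −0.58 and −0.56 in each of the 4 pairings of a knockout with a wild-type library, and −0.46 in 2iL. All 7 windows of 20 Mb along it had medians below 0, from −0.76 to −0.33. Chromosome 3 went the other way, with 288 of 566 genes higher (50.9%, against 33.6% of all genes) and 132 lower (23.3%, against 40%). It had a median of 0.25 (0.23 in 2iL), and 0 of 8 windows below 0. The other 18 chromosomes analysed, Y left out, had medians between −0.19 and 0.06. DNA copy number was not measured, and its part in these differences was not tested. With the genes of chromosome 8 left out, an alternative added after the data were seen, 4135 genes were higher and 4594 lower. The genes named above as lower that lie on chromosome 8 include Mef2b, Dusp4, Herpud1, Junb and Msmo1, but this is not a full list. In the PI3K and AKT list all 3 genes on chromosome 8 were lower, and in the WNT-response list the 1 gene there was lower. By contrast, Klf2, Zfp42, Rbl2 and Irf2 lie there and were higher.

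**Figure D5:**
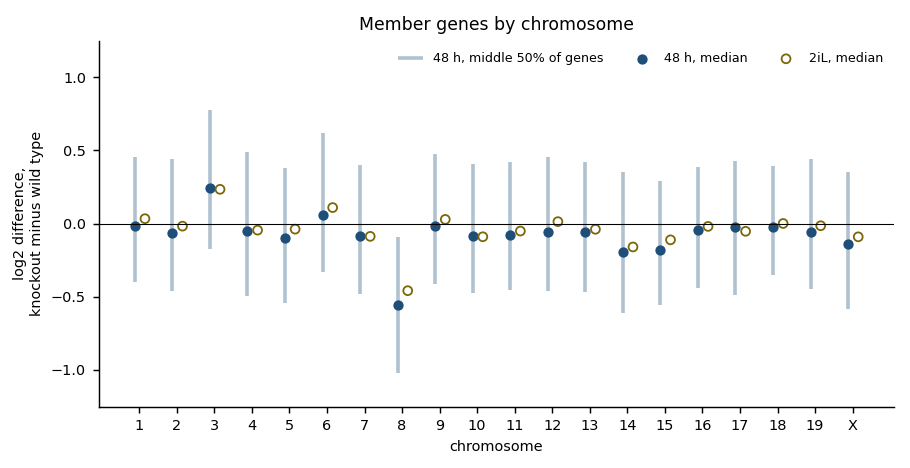
Median log2 difference between knockout and wild type for the genes of each chromosome at 48 h (filled) and in 2iL (open), with bars for the middle 50% of genes at 48 h. Chromosome 8 stands at −0.56 and −0.46 and chromosome 3 at 0.25 and 0.23, and the others lie close to 0.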

How the data were processed

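PolyA RNA of the v65 and ES1 lines was sequenced from dUTP libraries, per the labels. The authors aligned reads with STAR 2.5.0 and computed FPKM per gene with Cufflinks 2.2.1 on mm10, per the submitters' processing notes, and deposited 1 table. The small RNA signal was deposited as relative values of the wild-type line that sum to 110000 per library. Read numbers are not in these tables, so no counting error could be given, and whether counting used strand is not given in the sources used here. Of 41258 entries, the first for each of 56 repeated identifiers was kept, and no per-sample column was left unmapped (0).

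Genes at 1 FPKM or more in 2 of the 8 RNA libraries were tested (13166) as log2(FPKM + 1) with limma 3.58.1 in R 4.3.3. The model had 4 group means and an intensity trend (4 residual and 3.12 prior degrees of freedom), with Benjamini-Hochberg adjustment over all genes tested and contrasts for 48 h, for 2iL and for their difference. An exact permutation test of 2 against 2 libraries cannot go below 0.333. The procedure was tested on simulated data for the 48 h contrast (13166 genes), where it recovered 62.7%, 92.5% and 98.5% of genes changed by 0.5, 1 and 2 on the log2 scale, with 6 false calls. Only 67, 67 and 66 genes were changed there, drawn from genes above a set mean level, with independent normal noise. Far more genes differed in the real data, so these rates need not hold for them.

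Members and gene lists were chosen with earlier results of these data known. Named genes are the 12 highest and 12 lowest called genes without a clone-type symbol and with at least 5 FPKM in 1 genotype, the 6 largest rises and falls in FPKM, on/off genes, Dgcr8, and genes of the lists, the largest and the opposing ones first. A few genes that this rule names are not reported here. Promoters and mature miRNAs are from RefSeq (GRCm38.p6). Alternatives changed the pseudocount, filter, scaling, trend and libraries, as given at the end.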

Additional observations from a re-analysis of the deposited data

Results flagged for a closer look

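For 27 of 35 genes named by size of difference or of level, the difference between the genotypes at 48 h was not equal to that in 2iL by limma's interaction term, against 42.9% of all genes tested. Most of these genes were chosen for an extreme difference at 48 h, which favours a greater difference there than in 2iL, so the count is a description only. The value given for each is the 48 h difference minus the 2iL difference on the log2(FPKM + 1) scale, positive for 17 genes and negative for 10. Among the genes highest in the knockout, it was positive for Notum (4.33), Calcoco2 (2.66), Emp1 (3.71), Anxa2 (2.82), Msln (2.997), Smyd1 (2.24), Lgals3 (3.21), Efhd1 (4.51), Nr0b1 (3.74) and Arhgdib (3.68). For Bglap3 the interaction was not called. Among the 12 lowest it was negative for Car4 (−4.86), Tmem54 (−4.74), Mef2b (−1.85), Cldn6 (−1.45), Myl9 (−3.87), Chac1 (−1.59), Tspan7 (−2.76), Epha1 (−2.83), Vegfa (−3.30) and Galnt3 (−3.22). For Lin28a, the blocker of let-7 maturation, and the neuropeptide gene Calca it was positive (1.89 and 1.49), since both were lower by more in 2iL than at 48 h. Among genes with large changes in level it was positive for Dppa5a (1.05), Ppia (0.38), Ifitm1 (1.39), mt-Cytb (0.28) and Vim (2.99). The other 7 named by level, such as Rplp1 and Npm1, were not called. The 2 conditions used separate libraries of the same lines, with an estimate of spread shared between them.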

How the results depend on the processing

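Of 14 alternatives, 13 were planned and 1, leaving out chromosome 8, was added after the data were seen. The counts of genes that differed, higher or lower, and of unequal differences stayed within 1.5 times the reported ones in each alternative that gave them; the fit on the 48 h libraries alone gives no interaction. The counts of at least 2-fold differences also did, except with a mean of at least 5 FPKM required, where 897 genes were higher and 598 lower, from fewer genes tested. Leaving out 1 library at a time gave 8218 to 8342 genes called, 3767 to 3801 higher, 4439 to 4541 lower, 1463 to 1502 at least 2-fold higher, 1107 to 1141 at least 2-fold lower and 4275 to 4437 with an unequal difference. The lone library left in a group was then assumed to vary like the other groups. Median-ratio scaling gave 4580 higher and 4641 lower.

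Same-numbered libraries of the 48 h groups had a correlation of −0.04 in their deviations, and the other group pairs ran from −0.15 to 0.18. With 2 libraries per group these values show no strong shared shift. They cannot show whether same-numbered libraries were handled together. With the replicate number as a block, 9137 genes were called, 4168 higher and 4969 lower, 1482 and 1109 at least 2-fold, and 5125 had an unequal difference.

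Of 248 genes followed none reversed. Rplp1 lost its call under quantile scaling (−0.13), and Lat with no filter, after median-ratio scaling, with the block and without knockout replicate 2 or either wild-type library. Lfng lost it without either wild-type library or without knockout replicate 1, Hspa5 without knockout replicate 2 or wild-type replicate 1, and Ldhb without knockout replicate 1 or wild-type replicate 2. Lef1, Lefty2, Rhoc and Tcf7l1, not called above, were called in 7 gene and setting pairs. For 18 of 50 lists, mostly those near balance, the majority or the sign of the median changed in at least 1 alternative, the cause of which was not tested. Depth is unknown, so genes near 1 FPKM are the least certain.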
